A study of Mus musculus with 19 samples.

Results

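MicroRNAs bound by Argonaute 2 in the Gad2 neurons of the mouse neocortex were compared with those bound in its Camk2a neurons. The comparison uses 6 of the 19 libraries of the series, 3 labelled Gad2 and 3 labelled Camk2a. All 528 miRNA names of the deposited table are accounted for, of which 522 were tested. Gad2 encodes a glutamate decarboxylase, the enzyme that makes GABA, and its name stands for GABAergic inhibitory neurons; Camk2a encodes a subunit of a calcium-dependent kinase and stands for the glutamatergic excitatory neurons of the neocortex. In the published method a myc-tagged Argonaute 2 is switched on by Cre in the named neurons, and an antibody to the tag then pulls down the protein with its miRNAs from whole tissue, so that no cells are sorted.

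The Gad2 libraries came from mice with a C57BL/6 & 129 background, with 4 tissues pooled in each library. The Camk2a libraries came from mice with a C57BL/6 & BALB/c background, with 1 tissue in each. Both groups were neocortex at postnatal day 56, precipitated with the antibody to myc, so that the tagged protein is shared by both and strain and pooling cannot be told apart from the cell class. The 2 PV and 2 SST libraries, named after the interneuron genes for parvalbumin and somatostatin, had the strain, pooling, age, tissue and antibody of the Gad2 libraries. The 3 Neocortex libraries had the strain, age and pooling of the Camk2a libraries, but an antibody to Argonaute 2 itself, which is not limited to the named neurons. The labels do not say whether replicates came from separate animals, so p-values measure the spread between libraries, which may be technical.

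A miRNA is cut from the arms of a hairpin precursor as a short duplex, of which Argonaute mostly keeps a single strand. Bases 2 to 8 of the kept strand, the seed, pair with target messenger RNAs and lower their translation and stability. Names with the same seed form a family, and a star or the suffix of the opposite arm marks the strand that is usually discarded. In the brain, neurons, glia and vessels carry partly different sets, and among neurons some miRNAs respond to synaptic activity.

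The mature sequences of the miRNAs on which the results turn are given here 5′ to 3′ from RefSeq (GRCm38.p6), with the seed in capitals. The first set was lower in Gad2 neurons. It shows that the pairs miR-221 and miR-222, miR-132 and miR-212-3p, miR-27a and miR-27b, and miR-92a and miR-92b each share their seed.
miR-128: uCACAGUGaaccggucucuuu
miR-221: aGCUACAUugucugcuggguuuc
miR-222: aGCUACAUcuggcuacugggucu
miR-132: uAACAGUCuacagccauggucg
miR-212-3p: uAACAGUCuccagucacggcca
miR-27a: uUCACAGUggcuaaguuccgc
miR-27b: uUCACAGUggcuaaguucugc
miR-92a: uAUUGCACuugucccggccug
miR-92b: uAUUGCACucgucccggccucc
miR-203: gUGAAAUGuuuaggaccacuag

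The second set was higher in Gad2 neurons and shows that miR-384-5p carries the seed of miR-30e, miR-130a that of miR-301a, and that the miR-181 members share theirs.
miR-384-5p: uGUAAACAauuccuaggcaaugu
miR-30e: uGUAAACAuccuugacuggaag
miR-130a: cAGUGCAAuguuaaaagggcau
miR-301a: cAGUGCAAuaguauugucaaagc
miR-181a: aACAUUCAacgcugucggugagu
miR-181b: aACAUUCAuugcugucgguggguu
miR-181c: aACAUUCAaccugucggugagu
miR-34a: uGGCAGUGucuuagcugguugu
miR-34b-5p: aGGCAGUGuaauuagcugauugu
miR-298: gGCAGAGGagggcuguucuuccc
miR-574-5p: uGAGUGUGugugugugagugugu

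The third set is shown because members with 1 seed moved apart: let-7i and miR-708 were lower in Gad2 neurons, and let-7c, let-7g and miR-28 were higher.
let-7c: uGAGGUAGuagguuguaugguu
let-7g: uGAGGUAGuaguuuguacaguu
let-7i: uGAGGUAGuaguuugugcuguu
miR-708: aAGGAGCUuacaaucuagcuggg
miR-28: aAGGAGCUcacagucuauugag

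Levels are given in RPM, the deposited values divided by 10, with the same total in every library, and each is a share of its library's miRNAs and not an absolute amount. Recovered depth was 6983992 to 14249087 miRNA reads in the Gad2 libraries and 10309027 to 12824712 in the Camk2a libraries, and 484 to 498 names were detected in each. The limit that a count of 0 allows, 3 reads, comes to between 0.211 and 0.430 RPM, for counting error only. Across all 522 miRNAs, the log2 levels of a pair of libraries correlated at 0.986 to 0.990 within Gad2, at 0.991 to 0.993 within Camk2a and at 0.953 to 0.958 between them, which describes libraries over miRNAs that are not independent replicates. Messenger RNA was not measured, so the labels cannot be checked against Gad2 and Camk2a themselves. In such a precipitate of tissue, fewer cells with a miRNA and less of it per cell cannot be told apart.

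The miRNA profiles of Gad2 and Camk2a neurons differed widely. A miRNA was called when limma's test on log2 levels gave a Benjamini-Hochberg adjusted p under 0.05. Of the 522 miRNAs tested, 199 were called, which is 38.1%. Of these, 112 were higher in Gad2 neurons (21.5%) and 87 were lower (16.7%). Of the 294 whose mean reached 10 RPM, 151 were called (51.4%), with 83 higher (28.2%) and 68 lower (23.1%). The median log2 change of all miRNAs tested was 0.09.

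The called miRNAs held a large part of the reads. Those higher in Gad2 neurons took 32.5% ± 1.84 of the reads of Gad2 libraries and 19.9% ± 0.716 of those of Camk2a libraries (SD, n = 3 each). Those lower took 9.53% ± 0.444 of Gad2 reads and 30.3% ± 2.03 of Camk2a reads (SD, n = 3 each). The median fold was 2.36 among the higher miRNAs and 2.98 among the lower, and 21 of the 112 and 29 of the 87 changed by 4-fold or more. In 109 of the 112 and 85 of the 87 the libraries of the groups did not overlap, where 155 of all 522 miRNAs (29.7%) lay wholly above and 120 (23.0%) wholly below in Gad2.

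**Figure D1:**
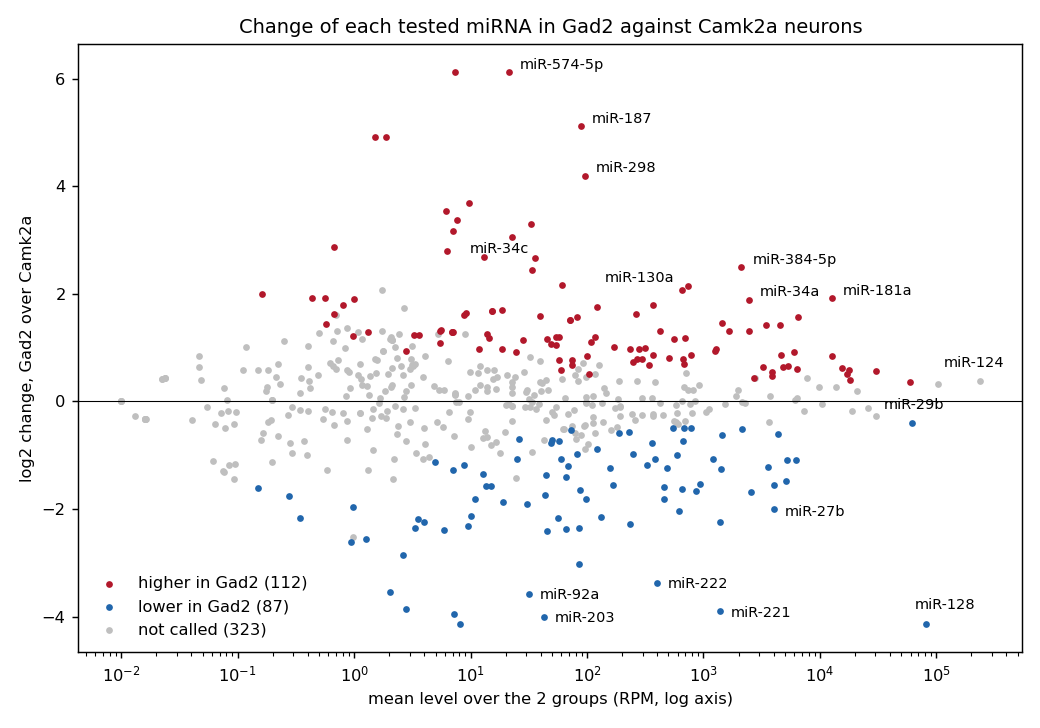
Each point is 1 of 522 miRNAs, with its mean level over both groups in RPM on a log axis and its log2 change, Gad2 over Camk2a, on the other axis; coloured points were called. Called miRNAs lie on both sides of 0, and miR-128 stands alone at the lower right with a high level and a log2 change of -4.13.

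miR-128, a brain-enriched miRNA known to set the excitability of neurons, was the most abundant miRNA to differ strongly. It had 7018, 7191 and 13159 RPM in Gad2 libraries, against 170459.7, 146682 and 143241 RPM in Camk2a libraries. Every Gad2 library lay far below every Camk2a library. It ranked 20 by mean level in Gad2 neurons and 2 in Camk2a neurons, where it made up 15.3% ± 1.48 of all miRNA reads (SD, n = 3). The level was 17.5-fold lower in Gad2 neurons (log2 change -4.13, 95% interval -4.54 to -3.73, adjusted p = 2.54e-12, limma). Its hairpins lie in an intron of R3hdm1 at chr1:128202361-128202430 on the plus strand and in an intron of Arpp21 at chr9:112118636-112118711 on the minus strand (GRCm38.p6), and the guide strand does not tell them apart.

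The star strands do. miR-128-1*, from the R3hdm1 copy, had 1.19, 1.21 and 0.286 RPM in Gad2 libraries, against 16.1, 14.97 and 14.8 RPM in Camk2a libraries (17.7-fold lower, adjusted p = 0.000492, limma; log2 change -3.15 with the larger pseudocount and -3.56 without Gad2 replicate 3, against -4.15). miR-128-2*, from the Arpp21 copy, had 0.140, 0.135 and 0.430 RPM in Gad2 libraries, against 2.04, 4.05 and 5.30 RPM in Camk2a libraries (11.7-fold lower, adjusted p = 0.0011, limma). The star strands of both copies were thus lower, from 28 and 6 Gad2 reads and 515 and 129 Camk2a reads.

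miR-221 and miR-222, which repress the cell-cycle inhibitor p27 and the receptor Kit, came next among miRNAs whose mean reached 100 RPM. They share a seed and lie together at chrX:19146294-19146971 (GRCm38.p6). miR-221 had 147, 83.6 and 399.9 RPM in Gad2 libraries, against 3065, 2447 and 2199 RPM in Camk2a libraries (log2 change -3.90, adjusted p = 8.6e-08, limma). The Gad2 libraries differed among themselves, and without Gad2 replicate 3 the log2 change was -4.52. miR-222 had 65.8, 41.7 and 123 RPM in Gad2 libraries, against 618, 834 and 727 RPM in Camk2a libraries (10.3-fold lower, adjusted p = 4.97e-08, limma). The rare star strand miR-222* had 1.54, 0.270 and 1.00 RPM in Gad2 libraries, against 13.4, 13.3 and 13.7 RPM in Camk2a libraries; its log2 change of -3.96 was -2.96 with the larger pseudocount and -3.33 without Gad2 replicate 2. All 4 names of the pair, star strands included, were called lower, where 16.7% of all miRNAs were. The PV and SST libraries, not tested here, had at most 71.2 RPM of miR-221 and at most 12.6 RPM of miR-222.

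miR-132 and miR-212 are made from 1 transcript that the factor CREB switches on after neuronal activity, and miR-132 promotes dendrite growth. Their hairpins lie at chr11:75173388-75173747 (GRCm38.p6), and all 4 of their strands were called lower, where 16.7% of all miRNAs were. miR-132* was the most abundant of them, with 373, 450.5 and 652 RPM in Gad2 libraries, against 2108, 2739 and 2022 RPM in Camk2a libraries (4.74-fold lower, adjusted p = 4.37e-07, limma). miR-132 itself had 188, 172 and 256 RPM in Gad2 libraries, against 686, 615 and 843 RPM in Camk2a libraries (3.50-fold lower). miR-212-3p was 2.93-fold lower, and miR-212-5p was 1.85-fold lower. The libraries of the groups did not overlap for any of these strands, which was a condition of choice for all but miR-212-5p. The call of miR-212-5p was lost when Gad2 replicate 1 or 2 or Camk2a replicate 2 or 3 was left out (highest adjusted p 0.108, limma). Of miR-132, the SST libraries, not tested here, held 842 and 552 RPM and the PV libraries 141 and 156 RPM.

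The list of activity-linked miRNAs also holds miR-134 and miR-184. Of its 6 members, 1 was higher and 4 were lower, or 83.3%, against 38.1% over all miRNAs. Their median log2 change was -1.22, against 0.09 for all miRNAs tested. The list of miRNAs known as neuronal, from miR-124 and miR-9 to miR-129, had 3 members higher and 11 lower of 22, or 63.6%. Its median was -0.62, and 1 to 2 were higher when a single library was left out. Its members summed to 38.1% ± 2.26 of the reads in Gad2 libraries and 45.4% ± 1.06 in Camk2a libraries (SD, n = 3 each). Without miR-128 the order turned, with 37.2% ± 2.53 in Gad2 libraries and 30.1% ± 1.92 in Camk2a libraries (SD, n = 3 each). The lower sum thus rests on this member, which was left out after its values were seen. These shares are still of all reads, miR-128 included, and its large part of the Camk2a reads leaves less there for other miRNAs. The size of the turned gap is therefore not a measure of the other members alone.

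Within the neuronal list, miR-218, which is abundant in motor neurons, had 2286, 2478 and 1518 RPM in Gad2 libraries, against 5576, 6714 and 5721 RPM in Camk2a libraries (2.92-fold lower, adjusted p = 2.56e-06, limma). The PV libraries, at 6559 and 6444 RPM, lay within the range of the Camk2a libraries, and the SST libraries, at 1054 and 1436 RPM, lay below all 3 Gad2 libraries. Of the star strands, miR-218-2*, from an intron of Slit3 at chr11:35616816-35616925, had 3.37, 2.02 and 6.73 RPM in Gad2 libraries, against 16.4, 15.1 and 16.8 RPM in Camk2a libraries (4.39-fold lower, adjusted p = 0.000363, limma). miR-218-1*, from an intron of Slit2 at chr5:48223942-48224051, had 2.04, 2.02 and 1.43 RPM in Gad2 libraries, against 1.26, 1.40 and 1.04 RPM in Camk2a libraries, and was not called (log2 change 0.52, 95% interval -0.39 to 1.44). The difference between both star strands was not tested.

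miR-129-5p, studied in synaptic scaling, was 3.08-fold lower, with 454, 275 and 262 RPM in Gad2 libraries, against 916, 1095 and 959 RPM in Camk2a libraries. miR-137*, the star strand of a miRNA whose locus is linked to schizophrenia, had 3.65, 3.91 and 6.87 RPM in Gad2 libraries, against 13.0, 18.3 and 19.1 RPM in Camk2a libraries (3.54-fold lower, adjusted p = 0.0228, limma). Its call was lost without Gad2 replicate 1 or 2 or Camk2a replicate 2 or 3, with a highest adjusted p of 0.0774.

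**Figure D2:**
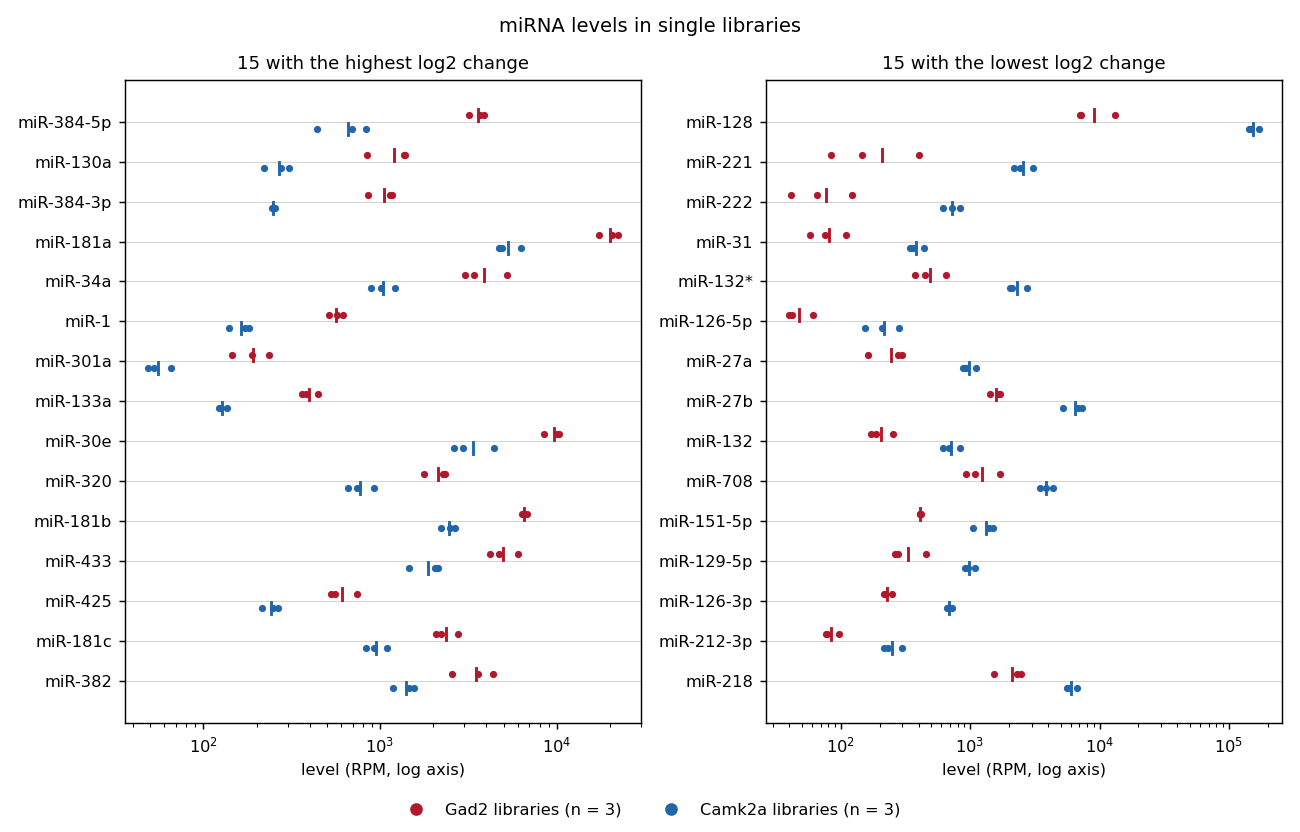
Levels in RPM on a log axis of the 15 highest and the 15 lowest log2 changes. They were taken from called miRNAs whose mean reached 100 RPM and whose libraries did not overlap. Each dot is 1 library (n = 3 per group) and each tick a group mean. The Gad2 and Camk2a dots of these 30 miRNAs are thus separate by the rule of choice, and the widest gap is at miR-128.

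miR-23, miR-24 and miR-27 are made from a pair of gene clusters, and miR-27 is known as a regulator of lipid metabolism. Of 11 members tested, 8 were lower (72.7%, against 16.7% over all miRNAs) and 0 higher, with a median log2 change of -1.48. Without Gad2 replicate 1, Camk2a replicate 2 or Camk2a replicate 3, 5 were lower. miR-27b had 1670.1, 1711 and 1419.8 RPM in Gad2 libraries, against 6786, 5249.6 and 7363 RPM in Camk2a libraries (4.01-fold lower, adjusted p = 4.97e-08, limma). miR-27a had 298, 275 and 163 RPM in Gad2 libraries, against 934, 880.3 and 1116 RPM in Camk2a libraries (4.10-fold lower). The 27a and 27b strands differ at few bases, and the sources used here do not say how the alignment divided reads between such names. miR-24, from both clusters, was 2.80-fold lower, and miR-23a, whose hairpin lies beside that of miR-27a, was 2.90-fold lower. At 7502 ± 1106 RPM in Camk2a neurons, miR-24 was the most abundant of them, against 2683 ± 405 RPM in Gad2 neurons (SD, n = 3 each).

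The miR-17-92 polycistron, known for driving proliferation, and its relatives were mostly lower. Of 16 members, 10 were lower (62.5%, against 16.7% over all miRNAs) and 0 higher, with a median log2 change of -1.39. At the main cluster on chr14:115043671-115044506 (GRCm38.p6), 7 of 10 names were lower. miR-92a, which has a further copy on chromosome X, had 3.86, 4.32 and 5.87 RPM in Gad2 libraries, against 70.1, 37.7 and 66.7 RPM in Camk2a libraries (11.9-fold lower, adjusted p = 9.86e-08, limma). miR-20a was 3.52-fold lower, miR-17 was 3.65-fold lower and miR-25 was 3.74-fold lower. These members were rare in both classes: together the list took 0.0550% of Gad2 reads and 0.0921% of Camk2a reads. The relative miR-93 was not called, and it held 73.0% of the summed level of the seed it shares with miR-17, miR-20a and miR-106b. That sum was 1.47-fold lower in Gad2 neurons, with libraries that overlapped.

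The miR-15/16 family slows the cell cycle. Of the 12 tested names of its list, star strands included, 4 were lower and 0 higher. These 33.3% stand against 38.1% called in either direction over all miRNAs, and 16.7% called lower. Of the 6 names with the seed of miR-16, 4 were lower and 0 higher. miR-16 had 3758, 4867 and 3525 RPM in Gad2 libraries, against 8867, 8288 and 8318 RPM in Camk2a libraries (2.12-fold lower, adjusted p = 0.0006, limma). miR-497, miR-195 and miR-15b were between 1.71-fold and 2.11-fold lower, and the call of miR-15b was lost without Gad2 replicate 1 (highest adjusted p 0.0535). In the SST libraries miR-16 reached 11642 and 10346 RPM, above all 3 Camk2a libraries.

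miR-31, best known as a suppressor of metastasis, had 76.3, 57.6 and 110.1 RPM in Gad2 libraries, against 344, 363 and 439 RPM in Camk2a libraries (4.83-fold lower, adjusted p = 2.56e-07, limma). miR-135a and miR-135b share their family and were 3.15-fold and 5.10-fold lower. For both, the 3 Camk2a libraries lay above 100 RPM and the 3 Gad2 libraries below.

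The star strands of miR-135a moved in opposite directions. miR-135a-1*, from an intron of D030055H07Rik at chr9:106154124-106154213, had 4.28, 2.56 and 2.29 RPM in Gad2 libraries and no read in any Camk2a, PV or SST library. The SST libraries were shallow, with a limit of 3 reads at 2.35 and 1.22 RPM, so their lack of reads says little. In the PV libraries that limit was 0.279 and 0.262 RPM. The mean of miR-135a-1* in Gad2 neurons, 3.04 RPM, was 10.5-fold higher than the limit of 3 reads in the Camk2a library with the highest limit, 0.291 RPM. miR-135a-2*, from an intron of Rmst at chr10:92072086-92072185, had 1.12, 0.270 and 0 RPM in Gad2 libraries, against 4.27, 5.93 and 5.11 RPM in Camk2a libraries (14.5-fold lower, adjusted p = 0.0013, limma). The first rests on 96 Gad2 reads and the second on 18 Gad2 and 174 Camk2a reads.

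Of the 25 names that mark a single copy of a repeated hairpin and had at least 60 reads, 4 were higher and 7 lower. Over all miRNAs tested, 21.5% were higher and 16.7% lower. For miR-129 the strands of both copies were lower, and for miR-138, a neuronal miRNA that limits dendritic spine size, miR-138-1* was called lower and miR-138-2* was not (log2 changes -1.19 and -0.02, chosen after their values were seen).

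Among miRNAs higher in Gad2 neurons, miR-384-5p led those whose mean reached 100 RPM. This strand was linked in rat to the upkeep of synaptic potentiation. It had 3884, 3179 and 3678 RPM in Gad2 libraries, against 696, 437 and 831 RPM in Camk2a libraries (5.64-fold higher, adjusted p = 4.16e-07, limma). The PV libraries, at 3674 and 3661 RPM, and the SST libraries, at 4551 and 3128 RPM, lay close to the Gad2 libraries. The opposite strand, miR-384-3p, was 4.20-fold higher, with 854, 1175 and 1142 RPM in Gad2 libraries, against 254, 246 and 246 RPM in Camk2a libraries.

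miR-384-5p shares its seed with the miR-30 family. Of the 13 names of the miR-30 list, with miR-384 and star strands counted, 7 were higher (53.8%, against 21.5% over all miRNAs) and 0 lower. The median log2 change was 0.65. miR-30e, from an intron of Nfyc, had 10053, 8498 and 10341 RPM in Gad2 libraries, against 2968, 2627 and 4419 RPM in Camk2a libraries (2.95-fold higher, adjusted p = 3.36e-05, limma). miR-30c-1*, from the neighbouring hairpin in the same gene, was 2.26-fold higher, and its call was lost without Camk2a replicate 1 (highest adjusted p 0.0635). Outside the naming rule, miR-30a and miR-30d were chosen after their values were seen: miR-30a was 1.89-fold higher and miR-30d 1.57-fold higher.

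miR-130a, known for promoting angiogenesis, had 1391, 1371 and 848 RPM in Gad2 libraries, against 275, 219.7 and 305 RPM in Camk2a libraries (4.44-fold higher, adjusted p = 8.24e-08, limma). miR-301a, from an intron of Ska2 and with the same seed, had 146, 189 and 236 RPM in Gad2 libraries, against 48.8, 52.3 and 65.5 RPM in Camk2a libraries (3.39-fold higher). No Gad2 library reached down to a Camk2a library for either, which was a condition of their choice. The PV libraries, at 525 and 509 RPM of miR-301a, and the SST libraries, at 766 and 564 RPM, lay above the Gad2 libraries.

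The miR-181 family is known for tuning the sensitivity of T cell receptors. Its list of 10 names, star strands included, had 6 higher and 0 lower, where 21.5% of all miRNAs were higher. The median log2 change of the list was 0.77. All 4 names with the seed of miR-181a were higher. The family's hairpins for miR-181a and miR-181b lie at chr1:137966455-137966718 and chr2:38852735-38853918 (GRCm38.p6). miR-181a was the most abundant called miRNA with a change over 2-fold in this direction, with 20423, 17306 and 22154 RPM in Gad2 libraries, against 4899.9, 4743 and 6290.2 RPM in Camk2a libraries (3.77-fold higher, adjusted p = 9.86e-08, limma). miR-181b was 2.68-fold higher, with 6554 ± 208 RPM in Gad2 neurons and 2455 ± 223 RPM in Camk2a neurons (SD, n = 3 each). miR-181c was 2.48-fold higher and miR-181d 1.81-fold higher. The whole list took 2.96% of Gad2 reads and 0.911% of Camk2a reads. The SST libraries, at 45148 and 48424 RPM of miR-181a, lay above all Gad2 libraries, and the PV libraries, at 14453 and 15997 RPM, below them.

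miR-34a, a target of p53, had 5238, 3423 and 3044 RPM in Gad2 libraries, against 887, 1008 and 1208 RPM in Camk2a libraries (3.70-fold higher, adjusted p = 4.36e-06, limma). Its relatives miR-34b-5p and miR-34c, made from a separate cluster on chromosome 9, were rarer. miR-34b-5p had 23.2, 19.4 and 25.5 RPM in Gad2 libraries, against 2.72, 3.74 and 3.97 RPM in Camk2a libraries (6.42-fold higher). miR-34c had 63.3, 49.4 and 71.3 RPM in Gad2 libraries, against 8.25, 12.2 and 8.51 RPM in Camk2a libraries (6.33-fold higher). In all, 4 of the 6 names of the list, opposite strands included, were higher (66.7%, against 21.5% over all miRNAs) and 0 lower. PV libraries held the most miR-34a, 11772 and 11981 RPM, and SST libraries the most miR-34c, 232 and 243 RPM, among these 4 neuron groups of the neocortex.

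miR-1 and miR-133, best known from muscle, were present in both neuron classes and higher in Gad2 neurons. miR-1 had 617, 513 and 569 RPM in Gad2 libraries, against 140.0, 172 and 181 RPM in Camk2a libraries (3.45-fold higher, adjusted p = 7.33e-06, limma). miR-133a was 3.09-fold higher, with 364, 448 and 382 RPM in Gad2 libraries, against 123, 136 and 126 RPM in Camk2a libraries. miR-133b was 5.44-fold higher. Of the 5 names of this list 3 were thus higher and 0 lower. Across interneurons, miR-133a stood at 1429 and 2053 RPM in PV libraries but at 52.4 and 50.9 RPM in SST libraries, below the Camk2a libraries.

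**Figure D3:**
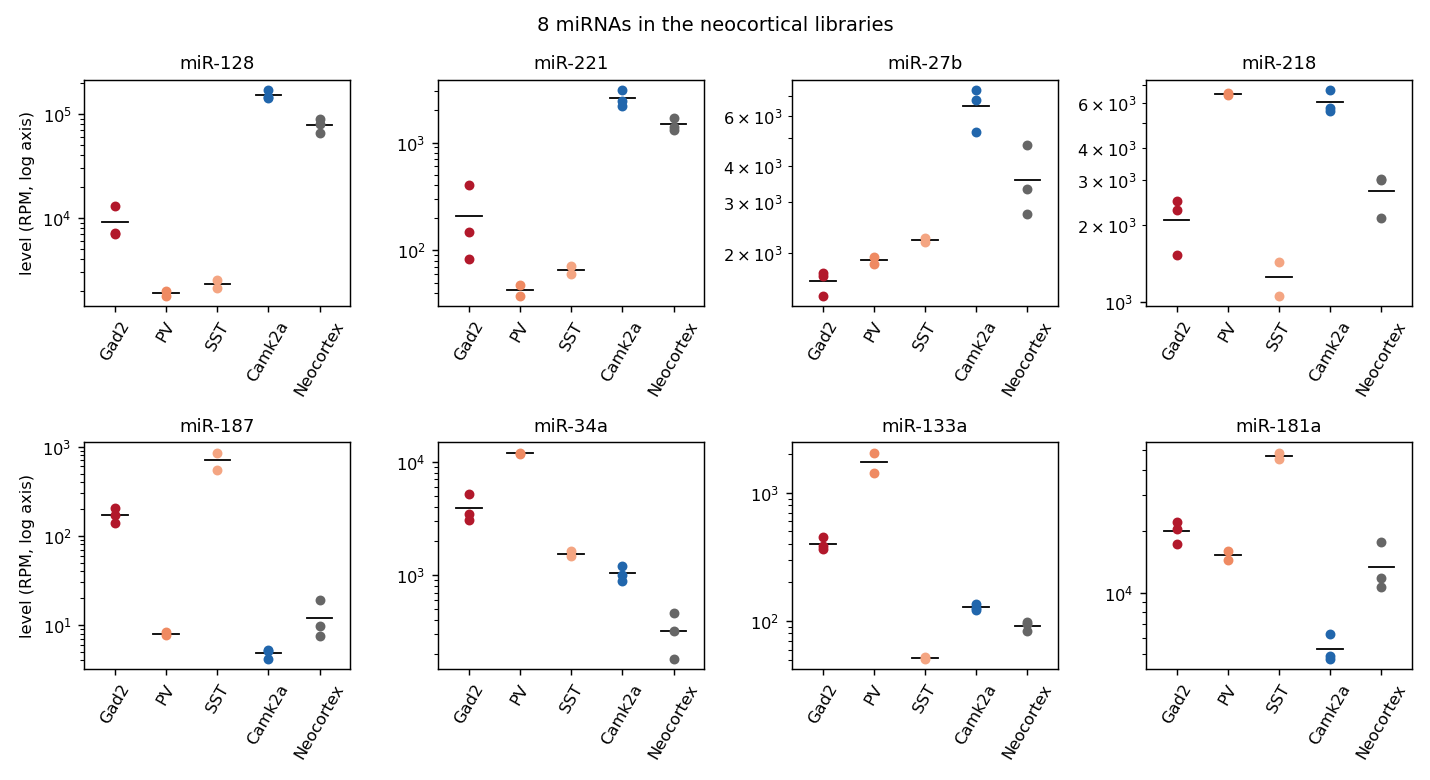
Levels in RPM on a log axis of 8 miRNAs in the Gad2, PV, SST, Camk2a and Neocortex libraries, where each dot is 1 library. For miR-128 and miR-221 the Gad2, PV and SST dots all lie below the Camk2a dots, while for miR-218, miR-187, miR-34a and miR-133a the PV and SST dots lie apart from each other; PV and SST were set beside the same Camk2a libraries and were not tested.

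Further miRNAs higher in Gad2 neurons were miR-320, cut from its hairpin without Drosha, miR-425, and the imprinted miR-433 and miR-382. miR-320 had 2335, 1774 and 2276 RPM in Gad2 libraries, against 741, 656 and 920.5 RPM in Camk2a libraries (2.76-fold higher). miR-433 had 6048, 4196 and 4742 RPM in Gad2 libraries, against 1466, 2121 and 2041 RPM in Camk2a libraries (2.67-fold higher). miR-425 was 2.49-fold and miR-382 2.46-fold higher.

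miR-433 and miR-382 belong to the Dlk1-Dio3 domain of chromosome 12, whose miRNAs are expressed from the maternal allele. Of 89 members, 16 were higher and 4 lower, or 22.5%, against 38.1% over all miRNAs, with a median log2 change of 0.20. The split varied with the method: limma on values divided by TMM factors called 13 higher and 6 lower, edgeR 15 higher and 12 lower, and DESeq2 15 higher and 14 lower. Without Gad2 replicate 2, Camk2a replicate 2 or Camk2a replicate 3 limma called 2 lower. miR-666-3p and miR-433* were the other named members, 3.12-fold and 2.31-fold higher. The rodent-specific cluster in an intron of Sfmbt2 had 6 of 41 members higher and 0 lower (2 higher without Camk2a replicate 2, 3 without Gad2 replicate 3, 12 with edgeR and 10 with DESeq2). These 14.6% lay below the 21.5% called higher over all miRNAs, and many of its names are near-identical copies whose reads the counting may have split. Its named member miR-669c was 1.96-fold higher, but lost its call in 6 of 15 alternatives (highest adjusted p 0.213), among them leaving out Gad2 replicate 1 or 3 or any 1 Camk2a replicate.

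Some less abundant miRNAs changed more than any named by level, and were chosen after their values were seen. miR-187 had 205, 171 and 140.3 RPM in Gad2 libraries, against 4.17, 5.22 and 5.11 RPM in Camk2a libraries (34.6-fold higher, adjusted p = 4.97e-08, limma). It stood at 551 and 855 RPM in SST libraries and at 7.73 and 8.22 RPM in PV libraries. miR-574-5p, from an intron of Fam114a1, had 41.4, 47.3 and 37.1 RPM in Gad2 libraries, against 0.485, 0.390 and 0.662 RPM in Camk2a libraries (69.5-fold higher). In the Camk2a libraries miR-574-5p was close to absent, with 17 reads, and miR-187 was rare, with 164 reads.

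miR-298 and miR-296 are neighbours at chr2:174267047-174267585 (GRCm38.p6), and the 3 names there were called higher, where 21.5% of all miRNAs were. miR-298 had 225, 144 and 173 RPM in Gad2 libraries, against 6.79, 11.6 and 11.2 RPM in Camk2a libraries (18.3-fold higher, adjusted p = 1.02e-09, limma). miR-296-3p was 8.33-fold higher. Like miR-187, miR-298 was low in PV libraries, at 6.89 and 8.22 RPM, and high in SST libraries, at 124 and 138 RPM. miR-700 was 9.81-fold and miR-670 9.03-fold higher, each with its star strand (13.0-fold and 10.4-fold).

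In the other direction, miR-203, an epidermal miRNA, had 4.21, 4.45 and 6.44 RPM in Gad2 libraries, against 83.0, 87.0 and 72.6 RPM in Camk2a libraries (16.01-fold lower, adjusted p = 3.51e-06, limma). miR-92b had 13.1, 11.6 and 39.9 RPM in Gad2 libraries, against 165, 125 and 160.3 RPM in Camk2a libraries (8.14-fold lower). Both were low in PV and SST libraries too, at no more than 12.5 RPM.

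Apart from miR-128, the 10 most abundant miRNAs changed by 1.48-fold or less. miR-124, the main neuronal miRNA, had 266972, 284250.4 and 244214 RPM in Gad2 libraries, against 184225, 224073 and 205423 RPM in Camk2a libraries. The libraries did not overlap, but the change was not called (log2 change 0.38, 95% interval 0.05 to 0.70, adjusted p = 0.0654, limma). miR-29b (log2 change 0.33), miR-26a (-0.28), miR-22 (-0.12), miR-376a (0.19) and miR-29c (-0.17) were not called either.

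miR-29a, of a family that increases as neurons mature, was 1.33-fold lower in Gad2 neurons (adjusted p = 0.0369, limma), and miR-9, a regulator of neurogenesis, was 1.28-fold higher (adjusted p = 0.048, limma). Neither call held in every alternative: miR-29a lost its call in 5 of 15 alternatives (without Gad2 replicate 1 or 3, without Camk2a replicate 1 or 2, and with the replicate block; highest adjusted p 0.144). miR-9 lost it in 10 of 15, among them the loss of any 1 library but Gad2 replicate 3 (highest adjusted p 0.336). Summed over its names, the miR-29 seed family had 185600 ± 14277 RPM in Gad2 neurons and 182372 ± 16428 RPM in Camk2a neurons (SD, n = 3 each; not called, log2 change 0.03).

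The let-7 family times differentiation, and its list here also holds star strands, which do not carry the let-7 seed. Of the 21 names of the list, 6 were higher and 2 lower, or 38.1%, the same share as over all miRNAs. The median log2 change of the list was -0.05. Of the 9 names with the let-7 seed, 6 were higher and 1 lower. Over the whole list, edgeR and DESeq2 each called 3 higher and 3 lower, and limma called 3 higher without Gad2 replicate 3. The list took 12.7% of Gad2 reads and 9.42% of Camk2a reads. let-7g had 18131, 15890.2 and 22235 RPM in Gad2 libraries, against 11227, 13281 and 11687 RPM in Camk2a libraries (1.54-fold higher, adjusted p = 0.00585, limma). let-7i, with the same seed, had 3227, 2542 and 4260.5 RPM in Gad2 libraries, against 6443, 7708 and 6809 RPM in Camk2a libraries (2.13-fold lower, adjusted p = 4.28e-05, limma). Library for library, let-7g was separate upwards and let-7i separate downwards.

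miR-98 was 1.72-fold, let-7e 1.52-fold and let-7c 1.48-fold higher. let-7c lost its call without Gad2 replicate 1 and under 3 other settings (highest adjusted p 0.0976), and let-7e without Gad2 replicate 3 or Camk2a replicate 1 and under 2 other settings (0.0810). Members differ at few bases, so that reads may have been divided between them.

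Of the miR-99/100 and miR-125 list, 3 of 11 members were higher and 1 lower, or 36.4%, near the 38.1% called over all miRNAs. miR-99a, known to repress mTOR, was 1.46-fold higher, and miR-99b, with the same seed, 1.67-fold lower; miR-99a* and miR-125b-1-3p were 1.71-fold and 1.90-fold higher. miR-99a lost its call without Camk2a replicate 3 (adjusted p = 0.0564, limma) and also with TMM factors (0.0740), edgeR (0.0944) and DESeq2 (0.109). miR-99a* lost it without Gad2 replicate 2 (adjusted p = 0.0542, limma) and miR-125b-1-3p without Camk2a replicate 1 (0.0635).

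The list of miR-28, miR-151 and miR-708 was split by member: 2 of 6 names were higher and 4 lower. All were thus called, against 38.1% over all miRNAs. miR-708 had 925, 1095 and 1699 RPM in Gad2 libraries, against 3495, 4338 and 3846 RPM in Camk2a libraries (3.24-fold lower, adjusted p = 1.36e-05, limma). miR-28, with the same seed, had 48.5, 59.5 and 71.2 RPM in Gad2 libraries, against 15.03, 23.0 and 21.6 RPM in Camk2a libraries (3.01-fold higher, adjusted p = 0.00015, limma). miR-151-5p was 3.16-fold lower and miR-151-3p 5.19-fold lower. The sum over their seed, mostly miR-708, was 3.10-fold lower.

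**Figure D4:**
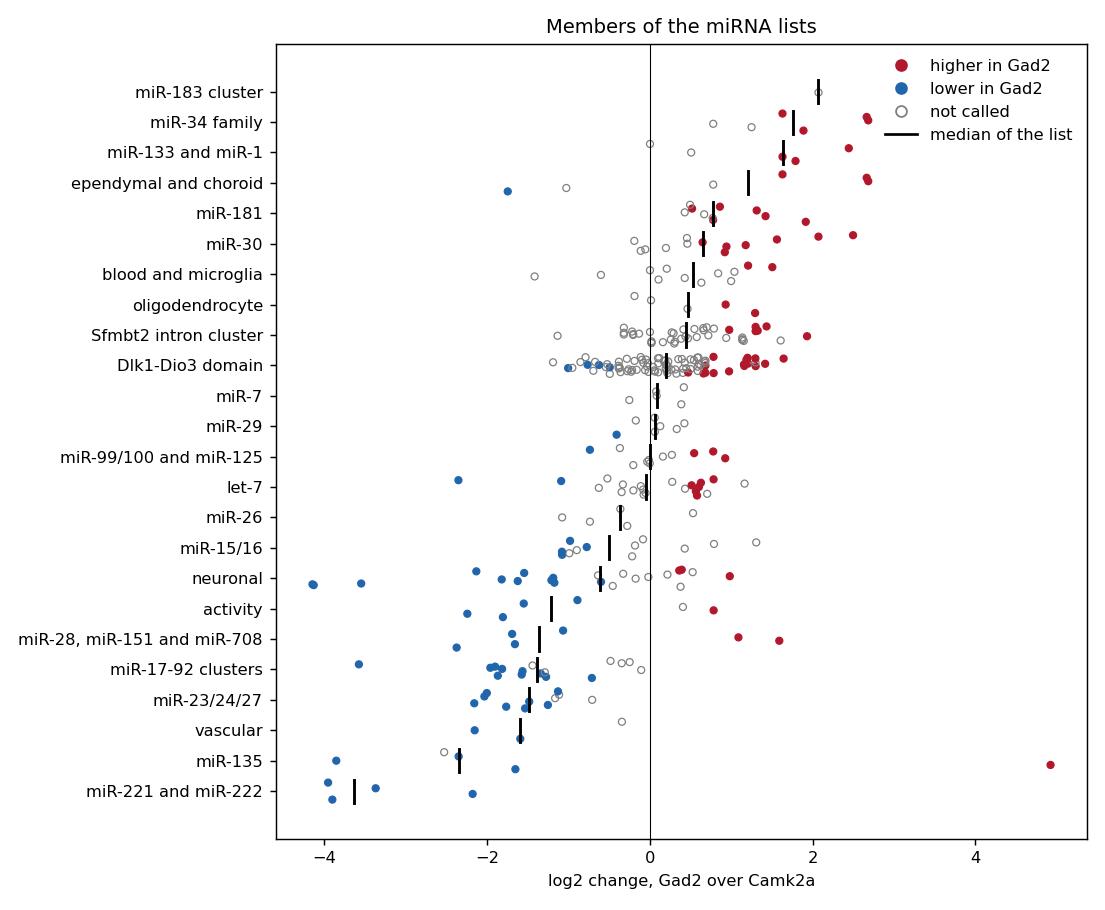
Log2 changes, Gad2 over Camk2a, of the members of 24 miRNA lists, sorted by the median of the list (black bar); filled points were called and open points were not. The medians run from -3.64 for miR-221 and miR-222 upwards, and the miR-135 and let-7 lists hold called members on both sides of 0.

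Of miR-7, known for its binding to the circular RNA Cdr1as, limma called 0 of 5 members, 0 of them at an unadjusted p under 0.05 and 0 by edgeR or DESeq2. Of miR-26, limma called 0 of 5, with 1 at an unadjusted p under 0.05, 1 lower by edgeR and 0 by DESeq2. The miR-183 cluster, known from sensory cells, had 1 name in the table, which limma did not call and edgeR called higher.

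Summed by seed, 110 of 298 seeds were called (36.9%), with 58 higher (19.5%) and 52 lower (17.4%). Of the 23 families with at least 2 names and a mean of at least 100 RPM, 8 were higher, 8 lower and 7 not called. The sum for the seed of miR-130a, miR-301a and miR-130b was 1493 ± 276 RPM in Gad2 neurons and 344 ± 54.1 RPM in Camk2a neurons (4.32-fold higher; SD, n = 3 each). The miR-181 seed reached 29352 ± 2971 RPM in Gad2 neurons and 8977 ± 1179 RPM in Camk2a neurons (3.28-fold higher). The seed of miR-30 and miR-384-5p reached 22643 ± 2205 RPM in Gad2 neurons and 9040 ± 2294 RPM in Camk2a neurons (2.55-fold higher), without miR-30b and miR-30d, which had no sequence entry.

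On the other side, the seed of miR-221 and miR-222 came to 287 ± 209 RPM in Gad2 neurons and 3297 ± 378 RPM in Camk2a neurons (13.6-fold lower). The seed of miR-92a, miR-92b, miR-25 and miR-32 was 6.90-fold lower, that of miR-27 was 4.02-fold lower and that of miR-132 and miR-212-3p was 3.33-fold lower. The let-7 seed, the largest sum but the miR-29 seed among these, was 1.34-fold higher, with 127273 ± 20953 RPM in Gad2 neurons and 93988 ± 8340 RPM in Camk2a neurons (adjusted p = 0.0306, limma). Of the 23 families, 3, those of let-7, miR-99 and miR-708, held called members in both directions.

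**Figure D5:**
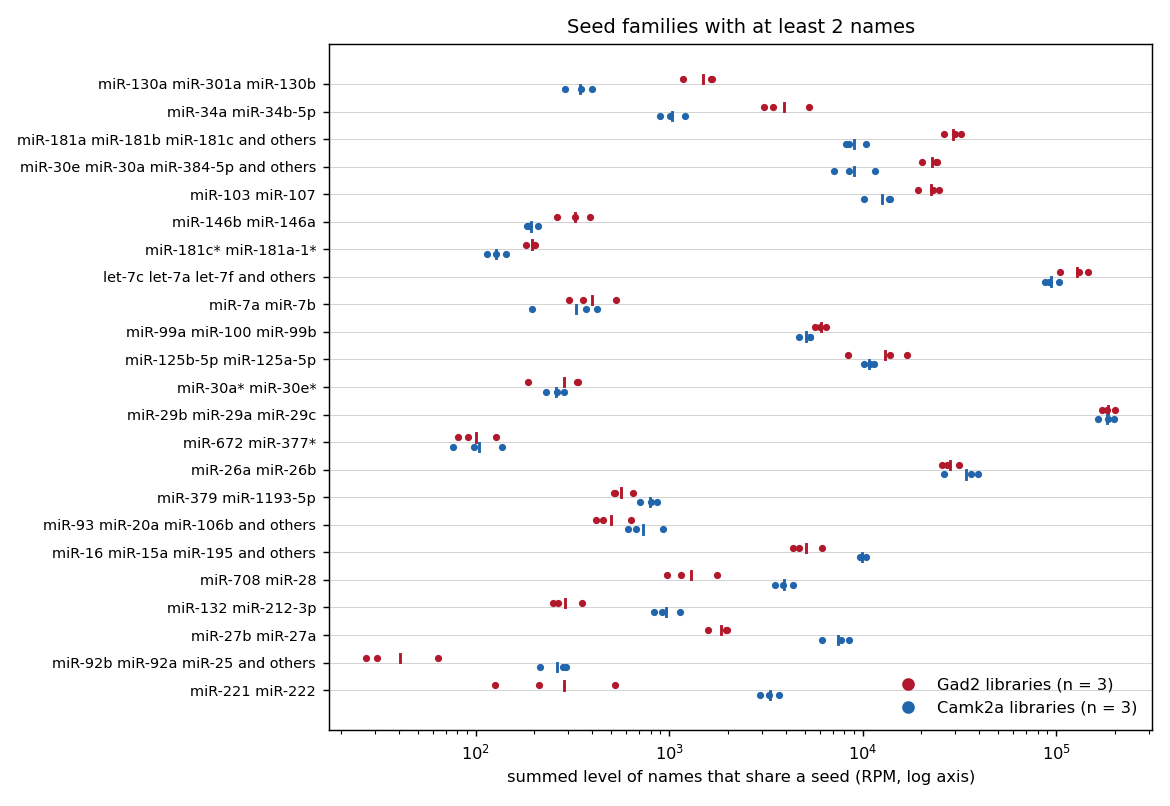
Summed levels in RPM on a log axis of the 23 seed families with at least 2 names, in order of log2 change; each dot is 1 library (n = 3 per group) and each tick a group mean. The dots of the groups are far apart at both ends, for miR-130a with miR-301a and for miR-221 with miR-222, and overlap in the middle, as for miR-29 and miR-26.

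Among seeds that could be summed, which leave out names without a sequence entry such as miR-187, those with the highest change were the seeds of miR-574-5p, miR-135a-1*, miR-574-3p, miR-298 and miR-141. miR-141, an epithelial miRNA, was uneven, with 2.04, 20.5 and 12.0 RPM in Gad2 libraries, against 1.26, 0.546 and 0.284 RPM in Camk2a libraries. With the same limit, the seeds with the lowest change were those of miR-128, of both miR-128 star strands, of miR-203, of miR-135a-2*, and of miR-221 with miR-222.

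For the arms, copies of a repeated hairpin were pooled under their shared name and counted as 1 hairpin. Where both arms were called, they moved the same way in all but 1, that of miR-135a. Of 72 hairpins whose main arm was higher, the minor arm was higher in 27 and lower in 0. Of 53 whose main arm was lower, it was lower in 27 and higher in 1. miR-135a counts in both of the latter, as its star strands moved in opposite directions. Its guide strand does not tell the copies apart, so no single hairpin was shown to have arms that moved apart. Of 116 hairpins whose main arm was not called, the minor arm was higher in 4 and lower in 3. Over all miRNAs tested, 21.5% were higher and 16.7% lower. The ratio of the minor to the main arm was tested in 174 hairpins, and limma called 0 (0.0%), with 37 at an unadjusted p under 0.05, 14 of them higher in Gad2 neurons, and a smallest adjusted p of 0.0786. The count depended on the setting: 3 were called higher and 5 lower with a pseudocount of 2, and 5 higher and 3 lower with the replicate block. The median width of the 95% interval, from end to end, was 1.90 on the log2 scale. miR-409-5p, from a deep hairpin of the Dlk1-Dio3 domain, and miR-34b were chosen after their values were seen. miR-409-5p made up 15.4% ± 0.641 of the reads of its hairpin in Gad2 libraries and 7.98% ± 0.696 in Camk2a libraries (SD, n = 3 each). These libraries did not overlap, but the change failed the correction, as did that of miR-34b. The minor arm of miR-34b took 7.90% ± 1.93 in Gad2 libraries and 24.3% ± 7.35 in Camk2a libraries, from 54 and 37 reads.

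The miRNAs of other cells that a precipitate of neocortex could hold were set beside these results. The vascular markers were lower in Gad2 neurons: 2 of 3 listed names were lower (66.7%, against 16.7% over all miRNAs), the endothelial miR-126-3p and miR-126-5p. miR-126-3p had 215, 249.9 and 221 RPM in Gad2 libraries, against 663, 722 and 682 RPM in Camk2a libraries (3.02-fold lower, adjusted p = 9.18e-08, limma). miR-126-5p was 4.45-fold lower. The vascular markers present in the table, 3 of 6, summed to 295 to 354 RPM in Gad2 libraries, 934 to 993 RPM in Camk2a libraries and 7841 to 8178 RPM in Neocortex libraries. The part of vascular RNA in the lower calls was not tested.

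The oligodendrocyte markers, 4 of 4 present, summed to 680.6 to 733 RPM in Gad2 libraries and 666 to 799 RPM in Camk2a libraries. They summed to 2155 to 3401 RPM in Neocortex libraries. The wider oligodendrocyte list had 2 of 5 members higher (40.0%, against 21.5% over all miRNAs) and 0 lower. When a single library was left out, 0 to 2 were higher. The blood and microglia markers, 6 of 6 present, summed to 11.4 to 22.5 RPM in Gad2 libraries, 12.6 to 17.5 RPM in Camk2a libraries and 1786 to 4035 RPM in Neocortex libraries. Of the wider blood and microglia list 2 of 12 (16.7%) were higher and 0 lower, where 21.5% of all miRNAs were higher. Among the 2 was miR-486, a miRNA of muscle and red cells. It had 116, 153 and 57.3 RPM in Gad2 libraries, against 36.7, 32.5 and 37.1 RPM in Camk2a libraries (2.84-fold higher). For both marker sets the ranges of the Gad2 and Camk2a libraries overlapped and lay below that of the Neocortex libraries.

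The ependymal and choroid markers, 4 of 6 present, summed to 95.6 to 118 RPM in Gad2 libraries, 67.0 to 93.0 RPM in Camk2a libraries and 66.6 to 98.3 RPM in Neocortex libraries. They were split: miR-34b-5p and miR-34c were higher, and miR-204, from an intron of Trpm3 and known from choroid and retinal epithelium, was 3.36-fold lower, with 16.4, 25.4 and 18.2 RPM in Gad2 libraries, against 72.7, 50.4 and 78.9 RPM in Camk2a libraries. None of the markers present was at 0 in all 6 libraries. The mean of the Neocortex libraries lay between those of Gad2 and Camk2a for 62 of the 112 higher and 43 of the 87 lower miRNAs, and for 156 of all 522.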

How the data were processed

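Small RNAs of 19 to 24 nucleotides, precipitated with Argonaute 2, received adaptors, went through PCR and were read on the Illumina Genome Analyzer II, per the labels' protocols. The submitters' processing notes name Bowtie and the mouse build mm9, with no version or role. The authors deposited 1 table of normalized signal per miRNA name. Its header states a scaling to 1 M miRNA reads, but each column sums to 10 M; RPM here is the deposited value divided by 10. In the 6 libraries every value (100%, tolerance 0.0051 on the deposited scale) was a whole multiple of the value of 1 read, from which read counts were recovered. Without molecular identifiers, PCR reads cannot be taken as separate molecules, so limits from counts cover counting error only.

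The test was limma 3.58.1 (R 4.3.3) with a trend, on log2(deposited value + 1), a pseudocount of 0.1 RPM, over 7 group means of all 19 libraries, for the contrast Gad2 minus Camk2a, with names kept at a value of at least 1 in at least 2 libraries. Fold changes are on that scale and understate those of rare miRNAs. This left out 6 names. Of the 528 names, 5 were at 0 in all 6 libraries compared, most of them tested through reads in other libraries. No pair of libraries of a group agreed within counting noise (chi-square per degree of freedom 244.8 to 498.4), and each was counted as 1 replicate, which does not show that they came from separate preparations or animals. Sequences and places come from RefSeq and GENCODE, and 366 of 528 names, with 74.3% of the reads, had a mature sequence; a name with no arm was taken as the guide strand. The arm ratio was the log2 of recovered reads plus 0.5, and hairpins closer than 10 kb formed a cluster. Names with identical values (6 sets) were counted once in an alternative. Scripts were tested on simulated data.

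Named were the 15 highest and 15 lowest called miRNAs whose mean reached 100 RPM and whose libraries did not overlap, up to 4 called members of at least 10 RPM per list, the 10 most abundant miRNAs, and the 5 highest and lowest seeds. The comparison, members and lists were chosen with earlier results of these data known. Alternatives were a pseudocount of 1 RPM, no filter, a mean of at least 10 RPM, TMM factors, the 6 libraries alone, edgeR 4.0.16 and DESeq2 1.42.0 on recovered reads, a replicate block and each library left out.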

Additional observations from a re-analysis of the deposited data

How the results depend on the processing

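The 199 calls of miRNAs became 160 to 234 under the alternatives, with each direction within 1.5 times its count, and of the 70 named miRNAs that were called, 58 kept the call in every alternative run on them: 15, or 14 for miR-128-1*, miR-222* and miR-666-3p, which lie under the 10 RPM mean. Of the named values under these alternatives, 1091 kept their call, 45 lost it, 1 gained it (miR-124, among miRNAs whose mean reached 10 RPM) and none changed direction. edgeR called 234 miRNAs, 184 of them shared, and DESeq2 225, 180 of them shared. The share of calls that were higher was 56.3%, against 49.7% with TMM factors, 47.9% with edgeR and 47.1% with DESeq2, and the median log2 change over the whole table, 0.09, was 0.003, -0.05 and -0.06 under these. Leaving out 1 library gave 87 to 97 higher and 68 to 83 lower miRNAs, and 42 to 50 higher and 36 to 53 lower seeds. The arm ratios moved most: 3 higher and 5 lower calls with a pseudocount of 2, 5 higher and 3 lower with the replicate block, and 0 to 1 in each direction with 1 library left out; the cause was not tested. Same-numbered Gad2 and Camk2a libraries did not deviate together (r = -0.0987, -0.234 and -0.0988 over 522 miRNAs). Among libraries of unlike number, Gad2 replicate 2 and Camk2a replicate 1 reached 0.196. Deviations from a mean of 3 libraries sum to 0, so these values are tied to each other and cannot show whether libraries were prepared together. The replicate block gave 211 calls of miRNAs, 182 of them shared, with 118 higher and 93 lower. Depth limits rare names: 55 tested miRNAs had at most 9 reads in each group.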
